A study of Mus musculus with 107 samples.

Results

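The late astrocyte maturation genes described here are a list of 10 genes expressed by adult mouse astrocytes, not all of them silent in earlier cells: Agt, Pla2g7, Sparcl1, Slc4a4, Atp1b2, Slc14a1, Aldh1l1, Ndrg2, Fam107a and Gpc5. They were taken as a list of symbols, matched to mouse Entrez identifiers, and read in all libraries of the series, so that they are 10 of the 27179 genes counted. The question asked of each gene was whether cultured cells reach the level of adult astrocytes, whether grafted cells in tissue do, and what injury does to it. All 10 genes had counts in the files.

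The study placed mouse neural progenitor cells (NPC) into spinal cord lesions and read what they became with RiboTag, in which the ribosomal protein Rpl22 carries an HA tag and RNA on tagged ribosomes is pulled down with an HA antibody and sequenced. All cultured and grafted cells came from 1 embryonic stem cell line (ESC; strain C57BL/6, genotype RiboTag +), made from RiboTag males and Sox2-cre females, so every replicate of these groups is a repeat on that line. The 107 libraries fell into 23 groups. Values are counts scaled to a library total of 1000000 (CPM), or CPM divided by the length of a gene's exons in kilobases (FPKM) where genes are compared with each other.

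The undifferentiated cultures were ESC (n = 4), NPC of the first derivation at passage 5, 15 or 30 (groups NPC P5, NPC P15 and NPC P30, each with n = 4), passage 15 cells of the D2 and D3 derivations, called NPC P15 D2 (n = 6) and NPC P15 D3 (n = 4), and NPC passed through a pipette in hydrogel, in hydrogel after a dwell of 4 h, or in medium (n = 5 each). For 8 differentiated groups (n = 4 each) EGF and FGF were lowered from 100 to 1 ng/ml for 4 days, with nothing added (SPONT), with 100 ng/ml CNTF or 100 ng/ml IGF-1, with 1, 5, 10 or 20% fetal bovine serum (FBS), or with CNTF and 5% FBS. Host astrocytes came from young adult mice of the 73.12 Gfap-Cre RiboTag line, in which the Gfap promoter drives Cre and so decides which cells carry the tag, either healthy (n = 9) or 14 days after a crush spinal cord injury (SCI; n = 5). Grafts were NPC in hydrogel placed in uninjured cord, in a crush SCI 2 days after injury, or in a double crush, and recovered at 14 days, with a further SCI group recovered at 5 days (n = 5 each). The labels do not say whether graft days run from injury or from grafting. By design only the grafted cells carried the tag in graft libraries, and the hosts received no immunosuppression.

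Several features of the libraries bear on all results below. The 96 paired-read libraries held 30473157 to 147764968 counts each, and the 11 single-read libraries, which are all of NPC P15 D2 and all of the 5-day grafts, held 12286240 to 18085106, so that the 5-day and 14-day grafts differ in read type and depth as well as in time. Of the 9 healthy host libraries, 7 carried Y-linked RNA at 64.31 to 101.9 CPM, whereas the other 2 and all 5 injured host libraries were at or below 0.08232 CPM, so sex and injury are partly confounded in the hosts. Xist, the RNA of the inactive X chromosome, did not exceed 0.4022 CPM in any of the 73 culture libraries but stood at 10.62 to 122.3 CPM in the 14-day grafts of the same line, which the study describes as female. In the 5-day grafts Xist ran from 0 to 37.41 CPM. Whether host RNA came down with the tagged ribosomes of the grafts was not tested here, so graft levels may include it. The study's own control pull-down from lesions without a graft, for which it reports minimal RNA and no HA tag transcripts, was not analysed here.

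The 10 genes cover several jobs of the mature astrocyte. Agt (angiotensinogen, the precursor of the angiotensin peptides), Pla2g7 (a secreted phospholipase that inactivates platelet-activating factor) and Sparcl1 (hevin, a matrix protein that promotes synapse formation) are secreted. Slc4a4 (a sodium bicarbonate cotransporter), Atp1b2 (the β2 subunit of the sodium pump) and Slc14a1 (a urea transporter) act in the cell membrane. Aldh1l1 (a folate enzyme widely used to mark astrocytes), Ndrg2 (a cytoplasmic protein used as an astrocyte marker), Fam107a (an actin-binding protein) and Gpc5 (a glypican, a heparan sulfate proteoglycan of the cell surface) make up the rest. Radial glia and immature astrocytes first divide and spread through the tissue, and genes of ion and water balance, transmitter uptake and synapse support rise as they settle among neurons and vessels. After injury, astrocytes near a lesion become reactive and many of these homeostatic genes fall.

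Healthy host astrocytes set the adult reference. Per kilobase of exon, the mean level in the 9 healthy libraries ran from 4368 FPKM for Sparcl1, 3184 FPKM for Atp1b2, 2473 FPKM for Ndrg2 and 1003 FPKM for Agt to 349.8 FPKM for Pla2g7, 172.8 FPKM for Fam107a and 149.6 FPKM for Slc4a4. Aldh1l1 (70.44 FPKM), Slc14a1 (59.81 FPKM) and Gpc5 (45.49 FPKM) stood lowest. The astrocyte label of these libraries was checked with 7 markers (Gfap, Aqp4, Slc1a2, Slc1a3, Aldoc, Gja1, Sox9), whose summed level was 46800 ± 2664 CPM (SD, n = 9). All 7 markers averaged at least 1 CPM. Markers of other cells were present as well. The 9 oligodendrocyte lineage markers summed to 8724 CPM, with Mbp the most abundant at 4312 CPM, and 3 Schwann cell markers to 1318 CPM, whereas 8 microglia and macrophage markers summed to 21.96 CPM. In libraries of a whole tissue segment, fewer cells of a type and less RNA per cell cannot be told apart.

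**Figure D1:**
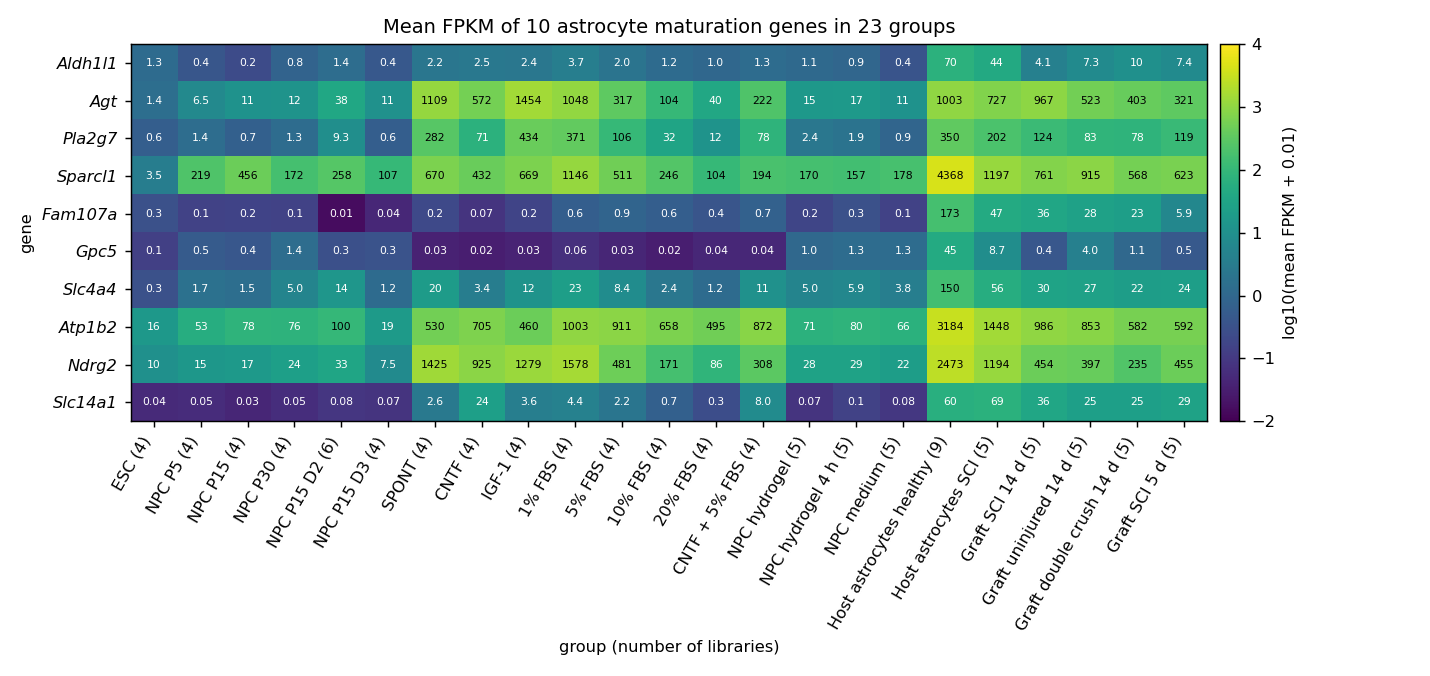
Heat map of the mean level of the 10 genes (rows) in the 23 groups (columns), in FPKM on a log colour scale, each cell being the mean of the libraries of a group. Sparcl1, Atp1b2 and Ndrg2 are the highest in healthy host astrocytes at 4368, 3184 and 2473 FPKM, and Fam107a and Gpc5 are at or below 0.85 and 0.06 FPKM in all 8 differentiated cultures.

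Undifferentiated cells held little of most of the genes. In NPC P15 Agt was at 21.2, 23.8, 21.8 and 20.0 CPM, Pla2g7 at 1.55, 2.52, 2.60 and 1.42 CPM and Slc14a1 at 0.125, 0.129, 0.0930 and 0.180 CPM. Sparcl1 was the exception, at 1366, 1390, 1277 and 1322 CPM before any differentiation, 10.44% of the healthy host mean. Levels differed among progenitor cultures: Slc4a4 averaged 15.72 ± 2.706 CPM in NPC P15 (SD, n = 4) but 156.2 ± 11.5 CPM in NPC P15 D2 (n = 6, single-read), and Sparcl1 averaged 314.2 ± 22.25 CPM in NPC P15 D3 (n = 4). For all 10 genes except Sparcl1, no progenitor group averaged over 10% of the healthy host level.

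After 4 days of lowered EGF and FGF most of the genes were higher than in NPC P15. Neither the labels nor the paper name the NPC derivation that the differentiated cultures came from, so NPC P15 is a chosen reference. Derivation and the lowering of EGF and FGF cannot be told apart here. Between SPONT and NPC P15 all 10 genes passed the filter on low counts, 8 rose, Gpc5 fell and Fam107a was not called, where 57.2% of all genes tested were called, 29.8% higher and 27.4% lower (edgeR quasi-likelihood test, Benjamini-Hochberg adjusted p below 0.01, here and in all comparisons). The CPM ranges of 9 of the 10 genes did not overlap between these groups, against 65.3% of all genes tested. The median log2 fold change (log2FC) of the 10 genes was 3.65, and that of all genes tested 0.08. Throughout, log2FC is computed after TMM scaling of the libraries, so it can differ from the ratio of the CPM means.

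Among the secreted proteins Agt and Pla2g7 rose far more than Sparcl1. Agt reached 2067, 2609, 1914 and 1802 CPM in SPONT, every library far above every NPC P15 library, with a log2FC of 6.73 ± 0.15 (SE, adjusted p = 8e-11). Pla2g7 stood at 761, 1001, 763 and 746 CPM, with a log2FC of 8.78 ± 0.24 (adjusted p = 3.1e-10). Sparcl1, already high in NPC, stood at 2551, 1740, 1803 and 1779 CPM, a log2FC of 0.68 ± 0.11 (adjusted p = 0.00022), although its ranges did not overlap either. Against the other derivations, whose Sparcl1 was lower, its log2FC was 1.44 (NPC P15 D2) and 2.71 (NPC P15 D3).

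Agt and Pla2g7 were also alike over all 23 groups. Among 13050 genes, Pla2g7 was the gene whose group means of log2(CPM + 1) followed those of Agt most closely (Pearson r = 0.975 over 23 groups), and Ndrg2 came next (r = 0.969). All cultured and grafted groups come from the same cell line, so the correlation is a description. The 250 bases before a transcript start of each gene, from RefSeq on GRCm38.p6, are shown to compare 2 promoters whose genes move together, with motifs in capitals. For Agt this is the gene's outermost start, whereas the Pla2g7 start used lies inside the annotated gene, which begins upstream at position 43567994 of chromosome 17. The motifs found are TATAAA, read on the gene's strand, and TTCNNNGAA, a palindrome bound by STAT factors, which CNTF activates.

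Agt, minus strand, chr8:124569707-124569956: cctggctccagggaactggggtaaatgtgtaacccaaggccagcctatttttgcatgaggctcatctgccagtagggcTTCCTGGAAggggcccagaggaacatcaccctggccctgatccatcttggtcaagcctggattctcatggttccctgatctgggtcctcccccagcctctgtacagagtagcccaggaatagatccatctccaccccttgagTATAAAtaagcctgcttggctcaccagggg

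Pla2g7, plus strand, chr17:43568201-43568450: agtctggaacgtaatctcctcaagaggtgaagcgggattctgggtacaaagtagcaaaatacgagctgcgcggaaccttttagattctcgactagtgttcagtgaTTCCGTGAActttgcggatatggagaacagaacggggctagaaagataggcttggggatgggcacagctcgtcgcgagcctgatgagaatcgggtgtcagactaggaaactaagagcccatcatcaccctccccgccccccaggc

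The Agt window holds TATAAA 30 bases before the start and TTCNNNGAA farther upstream, and has 0 CG dinucleotides, where the median over 32851 RefSeq promoters was 6. The Pla2g7 window holds TTCNNNGAA 145 bases before the start, no TATAAA, and 14 CG dinucleotides. Of all promoters of this length, 7.59% hold TATAAA and 7.02% hold TTCNNNGAA. Windows were found for 7 of the 10 genes (12 windows in all), and no other window of the 7 holds either motif. TGANTCA, the AP-1 motif, is in none of the 12 windows (6.75% of all promoters), nor is the full NFI palindrome (0.0365% of all promoters). The shorter NFI form TTGGCA is in 2 overlapping windows of Fam107a (12.3% of all promoters), which hold the same site. These motifs were read on both strands. Matches are descriptions of sequence only.

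All 3 membrane proteins rose as well. Atp1b2 went from 334, 297, 307 and 334 CPM in NPC P15 to 2469, 1985, 2179 and 2036 CPM in SPONT (log2FC 2.90 ± 0.08, adjusted p = 4e-10). Slc4a4 went from 16.1, 18.6, 16.0 and 12.1 CPM to 313.7, 149.4, 202.5 and 193.1 CPM (log2FC 3.89 ± 0.22, adjusted p = 6.3e-08), and Slc14a1 from at most 0.180 CPM to 14.3, 10.2, 8.93 and 8.48 CPM (log2FC 6.45 ± 0.30, adjusted p = 1.5e-08). For all 3 genes each SPONT library was above each NPC P15 library. Against the single-read NPC P15 D2, Slc4a4 was higher in SPONT still, but its log2FC turned to −1.99 in CNTF and −0.14 in IGF-1 against that reference.

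Among the other 4 genes, Ndrg2 and Aldh1l1 rose and Fam107a and Gpc5 did not. Ndrg2 went from 48.5, 64.1, 59.3 and 59.3 CPM to 4845, 4493, 4957 and 5069 CPM (log2FC 6.52 ± 0.10, adjusted p = 9.7e-12). Aldh1l1 went from 0.713, 0.594, 1.72 and 1.15 CPM to 8.54, 8.86, 12.0 and 11.0 CPM (log2FC 3.41 ± 0.34, adjusted p = 5e-06), a rise that ended far below the adult level. Fam107a stayed near 1 CPM, at 0.513, 0.620, 0.449 and 0.742 CPM in NPC P15 and 1.30, 0.563, 0.619 and 0.636 CPM in SPONT, with overlapping ranges and a log2FC of 0.55 ± 0.50 (adjusted p = 0.34), but it was called higher against NPC P15 D3 (log2FC 2.5, adjusted p = 9.2e-05). Gpc5 fell, from 1.54, 3.16, 2.09 and 0.629 CPM to 0.130, 0.0965, 0.177 and 0.0968 CPM (log2FC −3.74 ± 0.60, adjusted p = 0.00022).

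The genes differed in how they responded to the added factors. Against the same NPC P15 libraries, 7 genes rose and 1 fell with CNTF (68.5% of all genes tested called, 34.3% higher), 8 rose and 1 fell with IGF-1 (69.4% called, 35.6% higher) and 9 rose and 1 fell with 1% FBS (63.5% called, 32.4% higher). These comparisons share their NPC P15 libraries with that of SPONT. The gene that fell was Gpc5 in each, and its call with 1% FBS (log2FC −2.69 ± 0.78, adjusted p = 0.0081) was lost when any of 6 of the 8 libraries was left out. Fam107a rose with 1% FBS alone of these 4 conditions, to a mean of 2.341 ± 0.741 CPM (SD, n = 4; log2FC 2.14 ± 0.40, adjusted p = 0.00042).

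CNTF, a cytokine of the interleukin-6 family, moved the genes in both directions. Against SPONT, 2 of the 9 genes tested rose and 5 fell with CNTF, where 19.9% of all genes were called. Slc14a1 reached 97.01, 99.68, 94.01 and 97.62 CPM, above every SPONT library, with a log2FC of 3.23 ± 0.16 (adjusted p = 2.1e-07), and Atp1b2 rose by a log2FC of 0.43 ± 0.08 (adjusted p = 0.0017). Slc4a4 was at 32.99, 36.57, 38.25 and 39.84 CPM and Pla2g7 at 202.3, 194.4, 223 and 202.4 CPM, all below every SPONT library, with log2FC of −2.52 ± 0.19 (adjusted p = 5.2e-06) and −1.98 ± 0.11 (adjusted p = 7.5e-07). Agt, at 1075, 1022, 1130 and 1097 CPM, also lay wholly below SPONT (log2FC −0.94 ± 0.12, adjusted p = 0.00015), as did Ndrg2 (−0.60 ± 0.05, adjusted p = 1.7e-05) and Sparcl1 (−0.61 ± 0.12, adjusted p = 0.0024). The call for Sparcl1 was lost without CNTF library 1 (adjusted p = 0.011). The ependymal markers Foxj1 (1.03 ± 0.07, adjusted p = 1.5e-06), Ccdc153 (3.46 ± 0.38, adjusted p = 5.7e-05) and Dynlrb2 (1.01 ± 0.12, adjusted p = 0.00013) were also called higher with CNTF. Tmem212, another ependymal marker, was below the filter on low counts. The part of these markers in the result was not tested.

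In serum, CNTF moved Slc14a1 and Sparcl1 in the same direction as without it, and Slc4a4 was not called. With CNTF added to 5% FBS, 1 of 10 genes rose and 1 fell against 5% FBS (23.3% of all genes tested called). Slc14a1 was at 32.28, 30.5, 33.99 and 30.87 CPM against 12.2, 12.2, 5.29 and 5.39 CPM (log2FC 1.79 ± 0.28, adjusted p = 0.00095), and Sparcl1 at 535, 556, 645 and 540 CPM against 1437, 1804, 1588 and 1176 CPM (log2FC −1.47 ± 0.12, adjusted p = 3.5e-05). Neither range overlapped. Slc4a4, lower with CNTF alone, averaged 117.1 ± 6.613 CPM with CNTF and 5% FBS against 91.21 ± 22.1 CPM with 5% FBS (SD, n = 4), with overlapping ranges and a log2FC of 0.29 ± 0.15 that was not called (adjusted p = 0.15). Without 5% FBS library 4, 5 genes were called (21.3% of all genes tested), and DESeq2 also called 5 (32.8%). The fibroblast and pericyte markers Col1a1, Dcn, Pdgfrb and Lum averaged 136.4, 59.66, 31.56 and 5.24 CPM with 5% FBS. With CNTF added they averaged 11.75, 3.479, 6.784 and 0.0495 CPM. Col1a2 was at 0.4426 against 0.4755 CPM, and Rgs5 was higher with CNTF, at 0.542 against 0.2733 CPM. The part of these markers in the result was not tested.

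IGF-1 and 1% FBS changed fewer of the genes. Against SPONT, IGF-1 raised Pla2g7 alone among 9 genes tested (6.55% of all genes called, 2.8% higher), to 1268, 1309, 1284 and 1181 CPM (log2FC 0.67 ± 0.11, adjusted p = 0.0056), and that call was lost when any of 7 of the 8 libraries was left out, SPONT library 2 being the exception. Agt, at 2761, 2912, 2760 and 2566 CPM with IGF-1, overlapped SPONT (log2FC 0.44 ± 0.12, adjusted p = 0.023). With 1% FBS, 4 of 9 genes tested rose and none fell against SPONT (8.78% of all genes called, 5.63% higher), Atp1b2 by a log2FC of 0.94 ± 0.10 (adjusted p = 0.00016), Sparcl1 by 0.79 ± 0.12 (adjusted p = 0.0011), Aldh1l1 by 0.74 ± 0.14 (adjusted p = 0.0042) and Fam107a by 1.59 ± 0.33 (adjusted p = 0.0071). The calls for Aldh1l1 and Fam107a were each lost on leaving out SPONT library 4 or 1% FBS libraries 1, 2 or 4, among others.

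More serum lowered nearly all of the genes. Between 1% and 20% FBS, 8 of the 9 genes tested fell and none rose, where 29.6% of all genes tested fell and 30.4% rose. Pla2g7 went from 1007, 994, 1082 and 1231 CPM to 34.2, 34.2, 34.4 and 40.9 CPM (log2FC −4.94 ± 0.10, adjusted p = 3.4e-12), and Agt from 2014, 1706, 2124 and 2083 CPM to 73.2, 70.7, 77.2 and 80.5 CPM (log2FC −4.75 ± 0.09, adjusted p = 3.6e-12). Slc4a4, Ndrg2, Slc14a1 and Sparcl1 fell by 4.24, 4.22, 4.14 and 3.50 on the log2 scale and Aldh1l1 by 1.95. Atp1b2 fell least of the 8, from 4396, 4018, 4383 and 3585 CPM to 2160, 2109, 2048 and 1766 CPM (log2FC −1.05 ± 0.09, adjusted p = 7.7e-07). All 8 had ranges wholly below, against 30.0% of all genes tested. Fam107a was not called (−0.75 ± 0.26, adjusted p = 0.021), and Gpc5 was below the filter on low counts. Beside this, 6 fibroblast and pericyte markers summed to 38.08 CPM with 1% FBS and 472.4 CPM with 20% FBS. Col1a1, Pdgfrb and Dcn averaged 29.74, 5.349 and 1.533 CPM with 1% FBS and 321.5, 83.08 and 65.44 CPM with 20% FBS. Lum, Col1a2 and Rgs5 averaged at most 1.623 CPM in both. The part of these markers in the result was not tested.

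**Figure D2:**
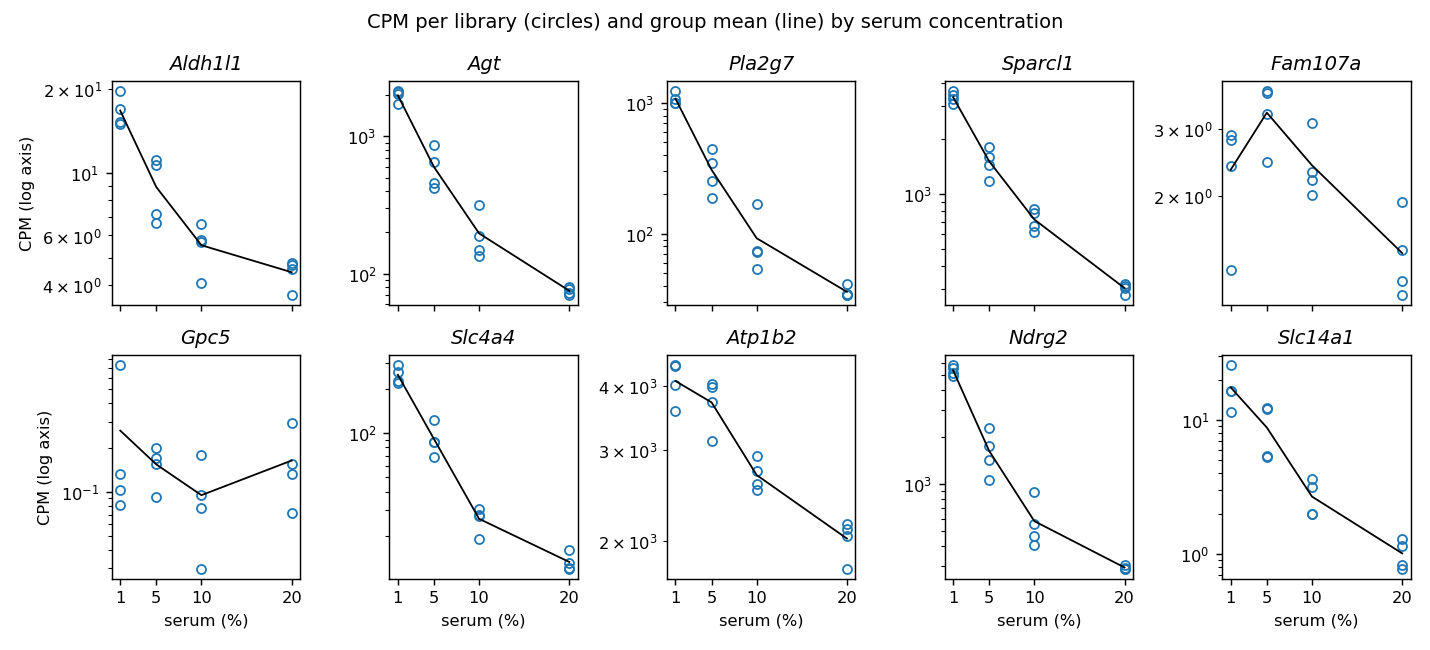
Level of each of the 10 genes (CPM, log axis) in each library of the cultures with 1, 5, 10 and 20% fetal bovine serum (x axis), each point being 1 library. From 1 to 20% serum the mean of Agt drops from 1982 to 75.4 CPM and that of Ndrg2 from 5361 to 293.4 CPM, while Atp1b2 stays within 1766 to 4396 CPM.

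Measured against healthy host astrocytes, the cultures reached some of the genes and missed others almost wholly. The best of the 8 differentiated cultures averaged 144.9% of the healthy host CPM for Agt and 124.0% for Pla2g7, both with IGF-1, and 63.81% for Ndrg2, with 1% FBS. Slc14a1 came to 40.63% with CNTF, and Atp1b2, Sparcl1 and Slc4a4 to 31.49, 26.23 and 15.3% with 1% FBS. Aldh1l1 reached 5.268% with 1% FBS, Fam107a 0.4939% with 5% FBS and Gpc5 0.1291% with 1% FBS (0.05208% without library 4 of that group). By this measure 3 of the 10 genes passed 50% of the adult level in some culture and 3 stayed under 10%.

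In tests against the 9 healthy host libraries, which the comparisons share, 9 of 10 genes were lower in SPONT, where 34.5% of all genes tested were lower. With CNTF 10 were lower (36.7% of all genes), with 1% FBS 10 (34.7%) and with IGF-1 8 (36.2%). Agt in SPONT did not differ by the test (log2FC −0.19 ± 0.11, adjusted p = 0.12), and its CPM ranges overlapped, healthy hosts running from 1537 to 2246 CPM. With IGF-1 every library held more Agt CPM than every healthy host library, and the test called it higher (log2FC 0.26 ± 0.08, adjusted p = 0.0063), but the call was lost with DESeq2 or on leaving out any of several libraries, such as IGF-1 library 3 (adjusted p = 0.027) or healthy host library 7 (adjusted p = 0.018). Pla2g7 with IGF-1 was also above every healthy host library in CPM, while its log2FC after TMM scaling was 0.04 (adjusted p = 0.64). With 1% FBS both genes had CPM ranges that overlapped those of healthy hosts and means of 1982 and 1079 CPM, yet were called lower after TMM scaling (log2FC −0.29, adjusted p = 0.0079, and −0.27, adjusted p = 0.0049), calls that were lost on leaving out 1% FBS library 1 or 2, among others. At the other end, Fam107a and Gpc5 in SPONT had log2FC of −10.07 ± 0.26 and −10.98 ± 0.17 against healthy hosts.

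Grafts in uninjured cord were compared with NPC in hydrogel, the cells as injected, and all 10 genes were higher in the grafts, where 28.4% of all genes tested were higher and 25.3% lower. All 10 also had CPM ranges wholly above those of the injected cells (28.8% of all genes tested). Fam107a stood at 138, 84.79, 104.1, 98.28 and 108.4 CPM against a mean of 0.6393 ± 0.1338 CPM (SD, n = 5), a log2FC of 7.40 ± 0.22 (adjusted p = 4.8e-10), and Slc14a1 at 108, 84.5, 129, 83.6 and 87.1 CPM, a log2FC of 8.46 ± 0.47 (adjusted p = 2.2e-08). Gpc5 varied most among the grafts, at 20.9, 8.87, 6.97, 6.52 and 46.8 CPM against 3.68, 3.96, 4.45, 5.54 and 5.58 CPM (log2FC 2.00 ± 0.55, adjusted p = 0.0067), and its call was lost when any of 7 of the 10 libraries was left out, such as uninjured graft library 5 (log2FC 1.24, adjusted p = 0.026).

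Set against SPONT, the grafts in uninjured cord split the genes into 3 kinds. SPONT cells had 4 days in culture and the grafts were recovered at 14 days, so time and tissue cannot be told apart here. In the grafts 5 genes were higher, 3 were lower and 2 were not called, where 41% of all genes tested were called. The higher ones included the pair that the differentiated cultures nearly lacked, Fam107a (log2FC 7.03 ± 0.31, adjusted p = 1.4e-08) and Gpc5 (7.10 ± 0.78, adjusted p = 1.2e-05), with Slc14a1 (3.17 ± 0.21, adjusted p = 2.2e-07), Aldh1l1 (1.65 ± 0.37, adjusted p = 0.0023) and Atp1b2 (0.63 ± 0.15, adjusted p = 0.004). The lower ones were the 3 genes that the best culture brought nearest to or above the healthy host level, Agt at 1478, 890, 1083, 823 and 670 CPM (−1.16 ± 0.22, adjusted p = 0.0009), Pla2g7 at 326, 200, 160, 207 and 318 CPM (−1.82 ± 0.23, adjusted p = 3.5e-05) and Ndrg2 at 1831, 1075, 1184, 1048 and 1607 CPM (−1.90 ± 0.19, adjusted p = 4.5e-06). None of these 8 genes had ranges that overlapped SPONT, against 46.1% of all genes tested. Sparcl1 and Slc4a4 each had a log2FC of 0.40 and an adjusted p of 0.17. The call for Aldh1l1 was lost without SPONT library 1 or 2, and that for Atp1b2 without any of the 4 SPONT libraries or without uninjured graft library 1.

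Uninjured grafts held other cells' RNA beside that of astrocytes. Their 9 oligodendrocyte lineage markers summed to 20740 CPM (Mbp 11140 CPM) and their 7 neuron markers to 2617 CPM (Snap25 1267 CPM, with all 7 at or above 1 CPM), against 4449 and 31.25 CPM in SPONT. The 6 fibroblast and pericyte markers summed to 2072 CPM against 8.606 CPM in SPONT, and the 8 microglia and macrophage markers to 441.9 CPM against 3.085 CPM. Uninjured graft library 5, which had the most Gpc5 and the most Aldh1l1 (66.8 CPM), also had the most neuron marker RNA, 6195 CPM, and the least Xist of its group, 10.62 CPM. The part of these cells in the result was not tested. The 7 astrocyte markers summed to 15130 CPM in these grafts and 13990 CPM in SPONT, mostly Gfap in both (10440 and 7880 CPM), while single markers differed in both directions, with Slc1a2 at 1472 against 180.1 CPM and Aldoc at 1556 against 4093 CPM.

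All 10 genes were still lower in uninjured grafts than in healthy host astrocytes, with no overlap of ranges for any (23.3% of all genes tested were lower, and 9.12% had ranges wholly below). Slc14a1 and Agt came nearest, at log2FC of −1.84 and −1.49, and Gpc5 and Aldh1l1 were farthest, at −3.99 and −3.79. The percentages that follow are of CPM means without TMM scaling, and SCI grafts were not tested against healthy hosts. Taking the best of the 4 graft groups for each gene, Agt reached 96.41% and Slc14a1 59.96% of the healthy host CPM, both in 14-day SCI grafts, Pla2g7 35.33% and Atp1b2 30.96%. Agt ran from 961.5 to 2530 CPM among those SCI grafts. Sparcl1, Fam107a, Slc4a4, Ndrg2 and Aldh1l1 lay between 14.82 and 20.95%, and Gpc5 reached 8.887% in uninjured cord (5.332% without library 5). Fam107a was thus 42.2 times as high in the best graft as in the best differentiated culture. For Gpc5 this ratio was 68.83, but it was 170.7 without 1% FBS library 4 and 41.31 without uninjured graft library 5, a choice made after the data were seen. Gpc5 was not absent from progenitors, where NPC P30 averaged 6.162 CPM, above the 1.899 CPM of the 14-day SCI grafts and the 2.065 CPM of the 5-day SCI grafts. In contrast, Pla2g7 and Ndrg2 were 3.511 and 3.465 times as high in the best culture as in the best graft.

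**Figure D3:**
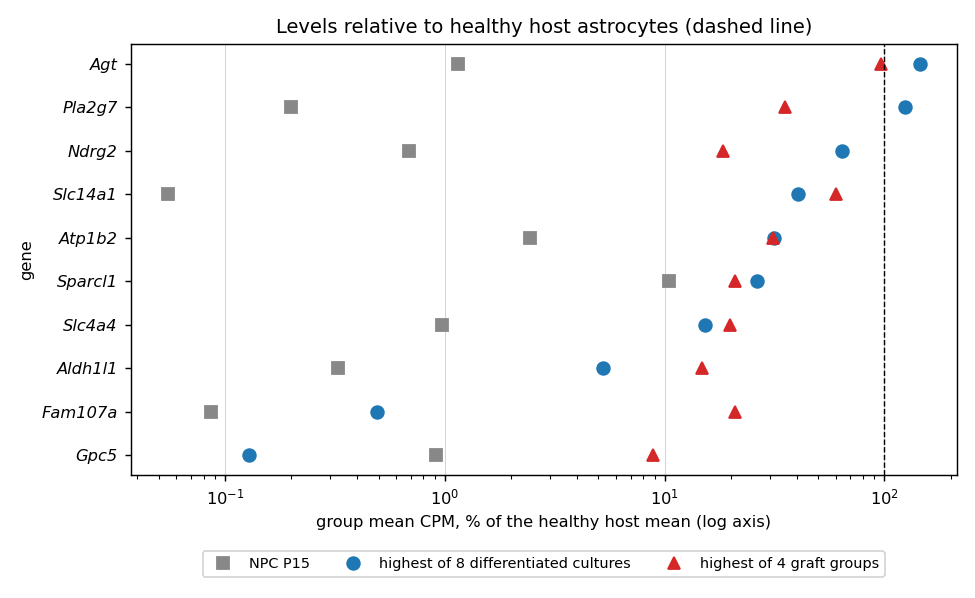
Level of the 10 genes as a percentage of the mean CPM of healthy host astrocytes (log axis) in NPC P15, in the highest of the 8 differentiated cultures and in the highest of the 4 graft groups, each point being a group mean. Agt is at 144.9% in culture and 96.41% in grafts, while Fam107a and Gpc5 are under 1% in culture and at 20.84% and 8.887% in grafts.

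In host astrocytes, injury lowered 9 of the 10 genes. Between 14 days after SCI and health, 9 fell, none rose and Slc14a1 was not called, where 41.1% of all genes tested were called, 22.2% higher and 18.8% lower. For 7 of the 10 genes every injured library was below every healthy library, which held for 7.94% of all genes tested. The median log2FC of the 10 genes was −1.26, and that of all genes tested 0.02.

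Gpc5, Fam107a and Sparcl1 fell most. Gpc5 ran from 171.9 to 229.8 CPM in the 9 healthy libraries and stood at 22.7, 12.9, 50.9, 73.1 and 34.9 CPM after SCI, a fall of 5.208-fold in mean CPM (log2FC −2.57 ± 0.29, adjusted p = 1.1e-06). Fam107a ran from 512 to 798 CPM in health and stood at 155.2, 134.4, 243.7, 273 and 99.31 CPM after SCI (log2FC −2.08 ± 0.20, adjusted p = 1.3e-07), and Sparcl1 from 9642 to 15700 CPM against 3118, 1876, 4184, 5979 and 2426 CPM (log2FC −2.06 ± 0.21, adjusted p = 3.9e-07). For all 3 genes the highest injured library was well under the lowest healthy one.

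Slc4a4, Atp1b2, Ndrg2 and Aldh1l1 followed, again without overlap. Slc4a4 ran from 1403 to 1822 CPM in health and stood at 496, 381, 670, 991 and 490 CPM after SCI (log2FC −1.61 ± 0.17, adjusted p = 4.1e-07). Atp1b2 stood at 5032, 4201, 6694, 7315 and 6342 CPM against 10820 to 15130 CPM (−1.31 ± 0.13, adjusted p = 2.2e-07), and Ndrg2 at 3136, 2433, 4108, 4749 and 5847 CPM against 7394 to 9840 CPM (−1.22 ± 0.17, adjusted p = 1.3e-05). Injured library 2 was the lowest of the 5 for each of these 3 genes. Aldh1l1 stood at 177, 138, 205, 237 and 236 CPM against 269 to 352 CPM (−0.85 ± 0.12, adjusted p = 1.5e-05).

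Agt, Pla2g7 and Slc14a1 were the 3 genes whose ranges overlapped between injured and healthy hosts. Agt (1089, 867, 1506, 1872 and 1539 CPM) and Pla2g7 (390, 359, 557, 732 and 899 CPM) were called lower at log2FC of −0.64 ± 0.15 (adjusted p = 0.0017) and −0.95 ± 0.19 (adjusted p = 0.00039). Slc14a1 was at 259, 221, 295, 337 and 270 CPM after SCI and at 215 to 266 CPM in health, with a log2FC of 0.03 ± 0.09 (adjusted p = 0.82).

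The host comparison was repeated with the healthy libraries that lack Y-linked RNA, as all injured libraries do, an alternative chosen after the data were seen. With these 2 healthy libraries alone, 5 genes were called in place of 9, where 17% of all genes tested were called in place of 41.1%, those lost being Aldh1l1 (log2FC −0.91, adjusted p = 0.016), Ndrg2 (−1.20, adjusted p = 0.022), Agt (−0.74, adjusted p = 0.073) and Pla2g7 (−0.91, adjusted p = 0.086), and Slc14a1 turned to −0.15. Between healthy libraries with and without Y-linked RNA, Fam107a averaged 650.3 ± 100.4 CPM (SD, n = 7) and 733.4 CPM (720.6 and 746.2 CPM, n = 2). For Slc14a1, both libraries without Y-linked RNA (249.1 and 266.3 CPM) were above all 7 with it, which averaged 233.6 ± 11.29 CPM.

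Other cell types' RNA changed with host injury too, where 22.2% of all genes tested were called higher and 18.8% lower. Oligodendrocyte lineage markers summed to 30600 CPM after SCI against 8724 CPM (Mbp 19620 against 4312 CPM), and 6 of 9 were called higher. All 8 microglia and macrophage markers were called higher, to a sum of 362.9 CPM, as were all 3 Schwann cell markers, to 3437 CPM. Of 6 fibroblast and pericyte markers 4 were called higher, to a sum of 701.7 CPM against 185.4 CPM (Col1a1 338.5 against 21.98 CPM). The 7 neuron markers summed to 182.4 CPM against 284.5 CPM, with 3 called lower (Snap25 32.84 against 141.0 CPM) and Stmn2 called higher. The 7 astrocyte markers summed to 35000 CPM after SCI against 46800 CPM, but not as a block. Slc1a2, Slc1a3, Aldoc and Gja1 were called lower, whereas Gfap, the most abundant, averaged 24690 CPM against 21060 CPM and was not called, nor were Aqp4 and Sox9. The ependymal marker Foxj1 was called higher (log2FC 1.0 ± 0.15, adjusted p = 1.9e-05), whereas Ccdc153, Tmem212 and Dynlrb2 were not called. The part of these markers and cells in the result was not tested.

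In grafted cells the edgeR test called no fall with injury over all libraries, but Gpc5 was called lower by DESeq2 and with 1 library left out. In SCI at 14 days against uninjured cord, none of the 10 genes was called by edgeR's quasi-likelihood test at an adjusted p below 0.01 (4.64% of all genes tested called), 6 had an unadjusted p below 0.05 (27.4% of all genes tested), and DESeq2 called 4, Agt, Pla2g7, Slc14a1 and Gpc5 (12.1% of all genes tested). Agt stood at 2099, 2427, 2530, 1129 and 962 CPM in SCI grafts, partly overlapping the uninjured grafts (log2FC 1.14 ± 0.27, adjusted p = 0.014), and Slc14a1 at 191.4, 162, 168.1, 99.01 and 95.86 CPM (log2FC 0.80 ± 0.19, adjusted p = 0.013). Gpc5 alone had ranges that did not overlap (14.1% of all genes tested), at 0.0517, 0.627, 1.61, 1.57 and 5.63 CPM in SCI grafts, with a log2FC of −2.87 ± 0.93 (adjusted p = 0.055). The log2FC of the other genes lay between −0.51 (Aldh1l1) and 0.80 (Pla2g7, adjusted p = 0.051). Library 5 of the SCI grafts decided several of these values: without it 3 genes were called (9.75% of all genes tested), Agt (1.26, adjusted p = 0.0046), Slc14a1 (0.87, adjusted p = 0.0065) and Gpc5 (−4.01, adjusted p = 0.0088). That library had the most Xist of its group, 122.3 CPM. Leaving out SCI graft library 4 or uninjured graft library 1 gave 1 call each. The fit of all libraries called none of the 10 and 4.64% of all genes tested.

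**Figure D4:**
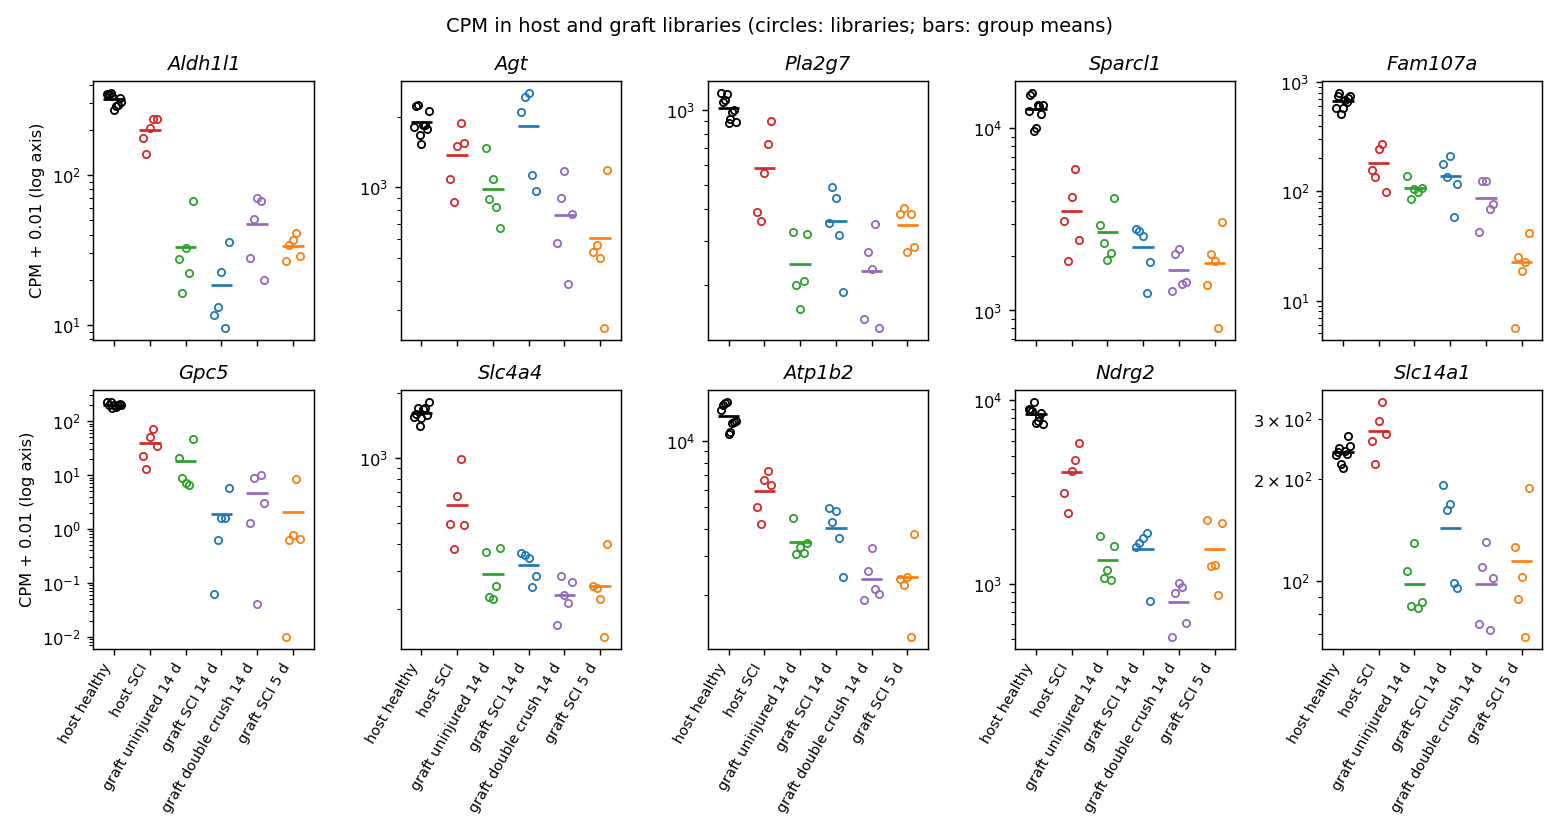
Level of each of the 10 genes (CPM + 0.01, log axis) in each library of host astrocytes (healthy and SCI) and of grafts (uninjured, SCI, double crush and SCI at 5 days), each point being 1 library. The injured hosts lie below the healthy ones for 7 genes, and Gpc5 spreads from 0 to 8.317 CPM among the 5-day SCI grafts and from 6.52 to 46.8 CPM among the uninjured grafts.

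The difference between the effects of injury on grafts and on hosts was tested as an interaction. The log2FC of SCI was larger in grafts than in hosts for 8 of the 10 genes and smaller for none, where 16.8% of all genes tested were called and 6.11% in the same direction. The difference was 2.69 ± 0.34 for Fam107a (adjusted p = 1.2e-06), 2.00 ± 0.35 for Sparcl1 (adjusted p = 0.00011), 1.97 ± 0.27 for Slc4a4 (adjusted p = 3.8e-06), 1.74 ± 0.31 for Agt (adjusted p = 0.00011) and 1.73 ± 0.23 for Atp1b2 (adjusted p = 2.6e-06). It was 1.71 ± 0.33 for Pla2g7 (adjusted p = 0.00026), 1.62 ± 0.30 for Ndrg2 (adjusted p = 0.00017) and 0.74 ± 0.19 for Slc14a1 (adjusted p = 0.0057). Aldh1l1 (0.30, adjusted p = 0.67) and Gpc5 (−0.42, adjusted p = 0.76) were not called. With the 2 healthy hosts that lack Y-linked RNA, 5 of the 8 calls held (4.92% of all genes tested called), and Pla2g7 (adjusted p = 0.023), Ndrg2 (adjusted p = 0.02) and Slc14a1 (adjusted p = 0.041) were lost. The call for Slc14a1 was also lost on leaving out any of 5 single libraries. Uninjured grafts were lower than healthy hosts for all 10 genes to begin with, and in SCI grafts neuron markers summed to 346.1 CPM against 2617 CPM in uninjured grafts and oligodendrocyte lineage markers to 8977 against 20740 CPM, whose part was not tested.

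**Figure D5:**
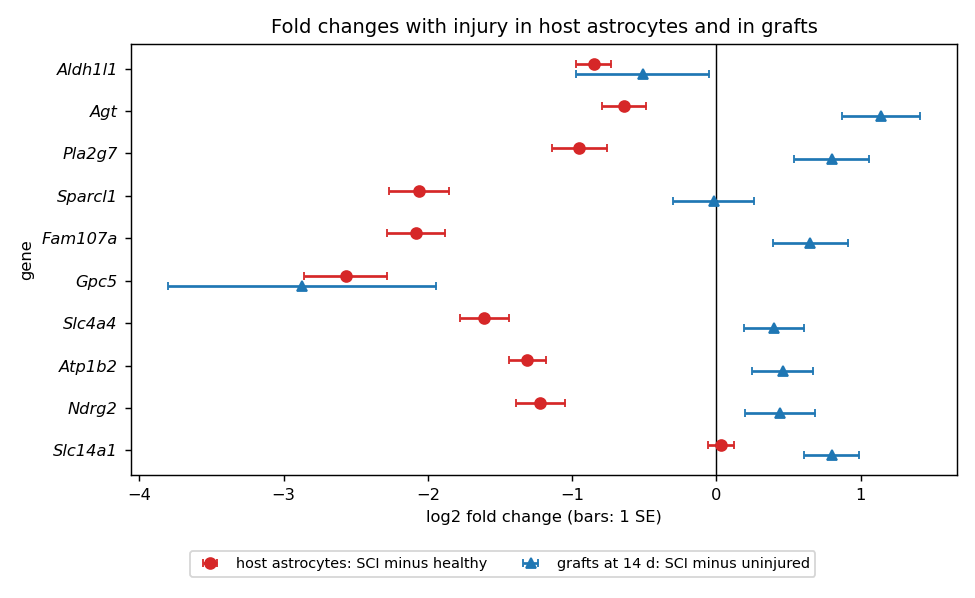
Log2 fold change with injury (± 1 SE) of the 10 genes in host astrocytes (SCI minus healthy) and in grafts (SCI at 14 days minus uninjured), with a line at 0. Host values run from −2.57 (Gpc5) to 0.03 (Slc14a1), and graft values from −2.87 (Gpc5) to 1.14 (Agt).

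At 14 days in SCI tissue, 5 of the 10 genes were lower in grafts than in host astrocytes and 5 were not called (14.6% of all genes tested called, 7.84% lower). The study took a cord segment centred on the lesion, so the origin of the cells and their place in the segment cannot be told apart. Aldh1l1 stood at 11.6, 13.1, 22.5, 9.53 and 35.9 CPM in grafts, far below the hosts' 137.9 to 236.8 CPM (log2FC −3.42 ± 0.41, adjusted p = 9e-05), and Gpc5 was lower by a log2FC of −4.30 ± 0.89 (adjusted p = 0.0035). Ndrg2 (−1.48 ± 0.28, adjusted p = 0.0018), Slc14a1 (−1.02 ± 0.18, adjusted p = 0.0013) and Slc4a4 (−0.96 ± 0.22, adjusted p = 0.0067) were also lower, and all 5 had ranges that did not overlap (20.4% of all genes tested). The call for Gpc5 was lost without SCI graft library 2 or 3, and that for Slc4a4 without any of 6 of the 10 libraries. Fam107a stood at 177, 137, 210, 58.5 and 116 CPM in grafts, overlapping the hosts' 155.2, 134.4, 243.7, 273 and 99.31 CPM (log2FC −0.42 ± 0.31, adjusted p = 0.37), and Agt had a log2FC of 0.33 ± 0.28 (adjusted p = 0.43). A p above the threshold does not show that these levels are the same.

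Few of the genes were called between graft times or with a larger lesion, and a missing call does not show that levels did not differ. From 5 to 14 days in SCI, 2 of 10 genes rose and none fell (5.3% of all genes tested called, 2.72% higher). Fam107a was at 5.62, 24.8, 18.6, 22.7 and 42.0 CPM at 5 days, below every 14-day library (log2FC 2.78 ± 0.44, adjusted p = 0.0018). Agt was at 528, 571, 500, 252 and 1183 CPM, overlapping the 14-day grafts (log2FC 1.75 ± 0.37, adjusted p = 0.0093), a call lost on leaving out any of 6 of the 10 libraries. With the replicate number as a block, neither gene was called, although no pairing of samples by these numbers was found. Time cannot be told apart here from read type, and 6 fibroblast and pericyte markers summed to 6938 CPM at 5 days and 1204 CPM at 14 days.

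In the double crush against uninjured cord, edgeR called none of the 10 genes (4.19% of all genes tested), none had an unadjusted p below 0.05 (24% of all genes tested), and DESeq2 called 0 (10.9%). Ndrg2, at 514, 892, 1012, 961 and 612 CPM, was the only gene whose range lay wholly below that of uninjured grafts (log2FC −0.53), where 9.48% of all genes tested did so. Against the SCI grafts the double crush again had 0 calls by edgeR (1.83% of all genes tested), with 7 genes at an unadjusted p below 0.05 (23.8% of all genes tested) and 3 called by DESeq2, Agt, Atp1b2 and Ndrg2 (8.07% of all genes tested). Agt, at 578, 898, 1180, 390 and 767 CPM, had a log2FC of −1.26 ± 0.33 (adjusted p = 0.03) and Ndrg2 one of −0.98 ± 0.25 (adjusted p = 0.026). Without SCI graft library 5, Ndrg2 (−1.11, adjusted p = 0.0048) and Aldh1l1 (1.69, adjusted p = 0.006) were called, as were 6.55% of all genes tested. Fibroblast and pericyte markers summed to 9303 CPM in the double crush (Col1a1 5685 CPM) and microglia and macrophage markers to 2077 CPM, and their part was not tested. These 2 comparisons share the double crush libraries, and the first shares its uninjured grafts with the test of SCI grafts.

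A list of 30 other mature astrocyte genes was read beside the 10. Between SPONT and NPC P15, 22 of the 30 rose and 3 fell (29.8% and 27.4% of all genes tested; median log2FC 2.04), led by Apoe (8.47) and Ntsr2 (7.53), and Chrdl1 (−2.61) and Acsbg1 (−2.05) fell. In uninjured grafts against SPONT, 17 rose and 4 fell (41% of all genes tested called), led by Grin2c, an NMDA receptor subunit (6.43 ± 0.61, adjusted p = 3.4e-06), and Slc7a10, an amino acid transporter (5.94), while Mfge8 (−3.57) and Cbs (−1.66) fell. With host SCI 1 rose and 24 fell (22.2% and 18.8% of all genes tested; median −1.42), with Slc6a11, a GABA transporter (−2.88), and Grin2c (−2.71) at the head. In SCI grafts against uninjured grafts 4 rose and 1 fell (4.64% of all genes tested called), with Apoe (1.5) and Aqp4 (1.28 ± 0.26, adjusted p = 0.0063) higher and Slc7a10 (−2.66, adjusted p = 0.0099) lower. The interaction was positive and called for 21 of the 30 and negative for 1 (16.8% of all genes tested called, 6.11% positive), led by Gja1 (2.71) and Slc6a11 (2.36), and its median was 1.46 against −0.13 over all genes tested.

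Genes of the same families and pathways did not follow the 10 as a block. Of 19 paralogues of the 10 genes, 8 rose and 7 fell with host SCI, where 22.2% of all genes tested rose and 18.8% fell. Ndrg1, a relative of Ndrg2 expressed in oligodendrocytes, rose from 265.8 to 955.3 CPM (1.67 ± 0.09, adjusted p = 1.4e-10), and Aldh1l2, the mitochondrial counterpart of Aldh1l1, rose from 7.262 to 34.9 CPM (2.07 ± 0.17, adjusted p = 2.5e-08) where Aldh1l1 fell.

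The pathway partners of Aldh1l1 and Agt gave further contrasts. Of 11 folate one-carbon genes, 10 fell and none rose between NPC P15 and SPONT, where 27.4% of all genes tested fell. Mthfd2, a mitochondrial folate enzyme, went from 369.0 to 25.53 CPM (log2FC −3.71 ± 0.31, adjusted p = 1.4e-06), while Aldh1l1 rose. Of 10 renin-angiotensin genes other than Agt, only 4 passed the filter in that comparison and 1 rose (Atp6ap2, 0.56 ± 0.09, adjusted p = 0.00021) and 2 fell (57.2% of all genes tested called). Ren1, the gene for renin, which cuts angiotensinogen, averaged at most 0.2888 CPM in each of the 23 groups, highest in SCI hosts. In uninjured grafts Ace, the angiotensin-converting enzyme, stood at 28.78 ± 16.7 CPM (SD, n = 5) against 0.4114 CPM in SPONT (log2FC 6.07 ± 0.57, adjusted p = 3.3e-06), where endothelial markers also differed, at 127.2 against 0.7951 CPM, and their part was not tested.

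The 10 genes did not share a single pattern. Over the 23 groups the 45 pairs had Pearson correlations of log2(CPM + 1) means from 0.044 to 0.978, with a median of 0.747, as a description. The genes most like Fam107a were Lgi1 (r = 0.985), Map3k19 (0.98) and Dlgap1 (0.979), and those most like Gpc5 were Grin2c (0.958), Glul (0.928) and Btbd3 (0.92). Slc14a1 was most like Aqp4 (0.971), the water channel of astrocyte endfeet, and Ndrg2 most like Ttyh1 (0.993). For Aldh1l1 the nearest gene was Prxl2a (0.945), for Sparcl1 Tspan7 (0.935), for Slc4a4 Kcnj16 (0.93), a potassium channel, and for Pla2g7 Ndrg2 (0.978).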

How the data were processed

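The 107 libraries hold RNA from ribosomes pulled down by their HA tag. Working in Galaxy, the authors concatenated lanes, ran Trimmomatic on the reads, used HISAT2 for alignment against mm10 and featureCounts for totals per Entrez gene, both at default settings, and the deposited values are these raw counts. Both mates of a pair appear to be counted, since 53.1 to 73.8% of low counts were even in paired-read and 43.1 to 48.5% in single-read libraries. Reads shared by overlapping, antisense or near-identical genes were not separated here.

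Symbols came from RefSeq (25275 of 27179 genes) and exon lengths from GENCODE M21 (21611 genes). CPM are counts scaled to the library total, without TMM. Groups, as labelled, were compared 2 at a time, and the injury effects in 1 fit of 4 groups, with edgeR 4.0.16 in R 4.3.3 (quasi-likelihood F test, TMM, filterByExpr with a minimum count of 10, Benjamini-Hochberg over all genes tested, adjusted p below 0.01). The SE is the absolute log2FC over the square root of F. The p-values measure the spread between these libraries, which for cultures may be technical. Tables were made in Python 3.11.15 (pandas 2.3.3, scipy 1.17.1, numpy 2.4.6) and with the R package data.table, and the tests were tried on simulated counts. From SPONT, 93 of 99 changes of 4-fold and 69 of 100 of 2-fold were recovered, and from healthy hosts 84 of 99 and 75 of 100. From uninjured grafts only 51 of 88 and 4 of 97 were, so many changes between grafts would be missed. Replicates of no group were identical.

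Other settings tried were no filter, DESeq2 1.42.0, its size factors within edgeR, the replicate number as a block, other references, the 3 graft groups at 14 days in 1 fit, and each library left out; the host libraries without Y-linked RNA, a Y covariate and group means with a library left out were chosen after the data were seen. The 10 genes, the other gene lists and the markers were chosen with earlier results of these data known. Besides the 10 genes, up to 2 called genes with the largest rise and 2 with the largest fall per list were named, at a group mean of at least 10 CPM, with paralogues and partners by value and the 3 genes most like each of the 10. No columns of other samples were used, and the study's imaging and single-nucleus data were not analysed here. Some genes that this rule names are not reported here.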

Additional observations from a re-analysis of the deposited data

Results flagged for a closer look

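The genes were looked over for libraries that stand far from the others of their group (a gap to the nearest library that is large beside the group's range, by Dixon's criterion at 95%). Of 230 sets of a gene in a group, 12 had such a library, and chance gives about 1 in 20. In SPONT, Pla2g7 was at 1001 CPM in library 2, where the next was 763.1 CPM, Sparcl1 at 2551 CPM in library 1 (next 1803 CPM) and Fam107a at 1.303 CPM in library 1 (next 0.636 CPM). With 20% FBS, library 4 was highest for Pla2g7 (40.9 CPM, next 34.44 CPM) and Ndrg2 (304.9 CPM, next 291.1 CPM). In 1% FBS, Gpc5 was at 0.7294 CPM in library 4 (next 0.1317 CPM). In NPC hydrogel after 4 h, Pla2g7 was at 11.46 CPM in library 1 (next 4.947 CPM) and Gpc5 at 11.7 CPM in library 3 (next 5.524 CPM).

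Among grafts, Gpc5 was at 5.629 CPM in library 5 of the 14-day SCI grafts (next 1.615 CPM) and at 8.317 CPM in library 4 of the 5-day SCI grafts (next 0.771 CPM). In that same 14-day library 5, Ndrg2 was the lowest at 802.4 CPM (next 1585 CPM) and Xist the highest of the group. Atp1b2 was at 4491 CPM in library 1 of the uninjured grafts (next 3460 CPM).

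The effect of injury differed between grafts and host astrocytes, by the interaction test given above, for Agt (1.74), Pla2g7 (1.71), Sparcl1 (2.0), Fam107a (2.69), Slc4a4 (1.97), Atp1b2 (1.73), Ndrg2 (1.62) and Slc14a1 (0.74), as log2 differences of graft effect minus host effect.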

How the results depend on the processing

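Across settings other than leaving out a library, 1040 of the log2 fold changes of the 10 genes kept their direction and side of the threshold, 29 lost their call, 22 gained one and 7 turned sign, and 103 counts of genes called stayed within 1.5 times and 9 did not. With libraries left out the numbers were 2288, 76, 21 and 33, and 221 and 24. The causes were not tested.

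Counts that moved were those of IGF-1 against SPONT (4 with DESeq2, 0 with the replicate block, 0 to 3 without a library), 1% FBS against SPONT (2 to 4 without a library), CNTF with 5% FBS against 5% FBS (5 with DESeq2, 2 to 5 without a library), SCI grafts at 14 against 5 days (0 with the block, 1 to 2), SCI against uninjured grafts (4 with DESeq2, 0 to 3), double crush against SCI grafts (3 with DESeq2, 0 to 2) and SCI grafts against SCI hosts (2 with the block, 3 to 5). With healthy hosts lacking Y-linked RNA, 5 genes were called in host injury and 5 in the interaction.

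Signs turned for Fam107a with CNTF (1.01 against NPC P15 D3), Slc4a4 against NPC P15 D2 (−1.99 with CNTF, −0.14 with IGF-1), Pla2g7 with IGF-1 against healthy hosts (−0.06 with the block), Sparcl1 in SCI against uninjured grafts (0.01 with the block) and Slc14a1 in host injury (−0.15 with Y-negative hosts, −0.13 with the Y covariate). Without a library, values crossed 0 for IGF-1 against SPONT (Sparcl1 −0.0037 to 0.19, Fam107a −0.39 to 0.09), 1% FBS against SPONT (Agt −0.14 to 0.06), CNTF with serum (Gpc5 −0.27 to 0.17), IGF-1 against healthy hosts (Pla2g7 −0.00018 to 0.07), SCI grafts at 14 against 5 days (Gpc5 −0.96 to 2.25), SCI against uninjured grafts (Sparcl1 −0.14 to 0.23), double crush against uninjured grafts (Agt −0.28 to 0.09, Pla2g7 −0.09 to 0.27, Fam107a −0.15 to 0.15, Slc4a4 −0.26 to 0.13), host injury (Slc14a1 −0.03 to 0.1) and the interaction (Aldh1l1 −0.2 to 0.8, Gpc5 −1.52 to 0.38).

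No pairing by replicate number was found: in no comparison did every same-numbered pair correlate over 0.1. This rule cannot exclude pairs or batches. The correlations of same-numbered pairs ran from −0.0142 to 0.05557 for SPONT and NPC P15, and from −0.1951 to 0.2699 for 1% FBS and SPONT. Over all genes, calls moved by more than 1.5 times for IGF-1 against SPONT (979, DESeq2 3619, block 1), 1% FBS against SPONT (1312, 2555, 833), SCI grafts at 14 against 5 days (811, 1773, 269), SCI against uninjured grafts (734, DESeq2 1917), double crush against uninjured grafts (666, 1731, 35) and against SCI grafts (289, 1274, block 0, 440 with no filter), SCI grafts against SCI hosts (2425, 3696, 1177), host injury (6933, block 4221, Y-negative 3015, Y covariate 4131), uninjured grafts against healthy hosts (8209, block 4991, Y-negative 2616) and the interaction (2947, block 1695, Y-negative 912). DESeq2's size factors moved the median of all genes from 0.119 to 0.235 for uninjured grafts against NPC in hydrogel. At the lower depth of the single-read libraries, Gpc5 was at 0 in 1 of the 5-day grafts and Fam107a in 4 of the 6 NPC P15 D2 libraries, so changes at such levels were not detectable there.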

Other observations

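A list of 15 immature astroglial and progenitor genes was read in the same comparisons. Between NPC P15 and SPONT 5 rose and 9 fell (29.8% and 27.4% of all genes tested), with Hes5, a Notch target, higher by 6.87 and Tnc and Igfbp2 lower at log2 fold changes of −5.85 and −5.56. In uninjured grafts against NPC in hydrogel none rose and 12 fell (28.4% and 25.3% of all genes tested), led by the cell cycle genes Top2a (−4.97) and Cdk1 (−4.96). With host injury 10 rose and 3 fell (22.2% and 18.8% of all genes tested), with Cdk1 (3.66) and Top2a (3.12) the largest rises and Ptprz1 (−1.38) the largest fall.

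Between 1 and 20% serum, 4 of these 15 genes rose and 9 fell (30.4% and 29.6% of all genes tested). Igfbp2 (5.53) and Tnc (5.3) rose and Hes5 (−9.32) fell. Of the 30 other mature astrocyte genes, 5 rose and 20 fell in the same comparison, Chrdl1 (2.27) and Htra1 (2.14) against Slc6a11 (−7.73). With CNTF against SPONT, 2 of the 30 rose (Clu 1.3, Aqp4 0.94) and 11 fell (19.9% of all genes tested called).

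Agtr1a, the angiotensin II receptor, averaged 0.09407 CPM in healthy hosts and 2.388 CPM after SCI (edgeR log2 fold change 4.45 ± 0.73, adjusted p = 6.6e-05). It lies below the level set for naming and was chosen after its values were seen. ESC held Aldh1l1 at 5.672 ± 1.252 CPM (SD, n = 4), between the 1.043 ± 0.5098 CPM of NPC P15, the lowest of the 23 groups, and the 6.33 ± 1.027 CPM (SD, n = 6) of NPC P15 D2.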
